A study of Mus musculus with 103 samples.

Results

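Oxidative phosphorylation is the last step of cellular respiration, in which complexes I to IV of the mitochondrial inner membrane pass electrons from NADH and succinate to oxygen and pump protons, and ATP synthase uses the returning protons to make ATP. Most subunits of these complexes are encoded in the nucleus and are usually expressed in concert. Brown adipocytes and cardiac muscle hold large amounts of them, and in brown adipocytes the uncoupling protein encoded by Ucp1 lets protons return without making ATP and releases the energy as heat; the aortic arch is surrounded by fat of brown character in mice.

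The genes described here were chosen by symbol, from the naming families Nduf, Sdh, Uqcr, Cox4 to Cox8 and Atp5, with a mean value of at least 1 over all libraries. Of 51456 symbols in the files, 100 matched the names. Of these, 7 pseudogene symbols, 2 isoform genes left out by name (Cox7a1 and Cox8b) and 2 genes below the mean (Cox7b2 and Cox8c) were left out, and 89 genes remained. The label of subunits held for 78 of the 89: 8 are complex I assembly factors (Ndufaf1 to Ndufaf8) and 3 carry the prefix for other reasons (Atp5s, Atp5sl and Cox7a2l). The members just inside the limit were Ndufaf6, with a mean of 3.33, and Atp5s, with a mean of 3.85. Those just outside were Cox7b2, with a mean of 0.00627, and Cox8c, with a mean of 0.000937. Apart from Cox6a2, which reached 1 in 35 libraries, the other 88 members were at 1 or more in each library. No symbol in the files began with mt-, the prefix of genes encoded in the mitochondrial genome, and such genes were not analysed here.

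The study asked how an antibody against sclerostin, an inhibitor of Wnt signalling made by bone cells and by the arterial wall, affected the aorta of mice prone to atherosclerosis. RNA of the aortic arch was sequenced from female, ovariectomized C57BL/6 mice, 1 per library: 46 were wild type and 57 lacked apolipoprotein E (ApoE), the ligand that clears lipoprotein remnants from blood. All animals, controls included, ate a diet with 42% of its calories from fat, and received vehicle or the antibody (Scl-Ab, r13C7, 10 mg/kg) under the skin between the shoulder blades once weekly. Adventitial fat was scraped off the arch with a swab before freezing, per the labels' protocols. Arches were taken after 3 weeks of treatment (age 12 to 13 weeks), 8 weeks (age 17 to 18 weeks) or 16 weeks (age 25 to 26 weeks). Wild-type mice on vehicle numbered 8, 5 and 10 at the 3 times and those on Scl-Ab 6, 9 and 8. Knockout mice on vehicle numbered 8, 10 and 10 and those on Scl-Ab 9, 10 and 10.

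The deposited values stand in a column named FPKQ, which the labels do not define. They were read as FPKM-type levels, per gene length and depth, from that name and from their range; levels and shares set between genes below hold only under that reading. Column sums ranged from 494635 to 826445 and 12405 to 13338 genes were at 1 or more per library; read depth is unknown. Apoe itself lay between 219.9 and 616.8 in the 46 wild-type libraries and between 4.31 and 18.2 in the 57 knockout libraries, with no overlap. Smooth muscle genes, which define the arterial wall, were present in each library, with a sum over 15 markers of 6161 to 26846. The 3 sequencing batches that the design text mentions are not assigned to libraries, so no within-batch value could be had and a batch effect cannot be told apart from the groups. Differences below are log2 changes of value + 1 ± SE from limma, fitted over 14637 genes with 1 mean for each of the 12 groups; a gene was called at a Benjamini-Hochberg adjusted p under 0.05, two-sided. All 89 members were tested.

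Promoters of 4 members are shown first because they span the patterns that follow. Sdha and Sdhd, of complex II, and Cox5a, of complex IV, moved with the bulk of the list. Atp5g1, a gene for the ATP synthase c subunit, was called lower with Scl-Ab in wild-type mice at 3 weeks, where most members were higher. Each window runs from 250 bases before to 50 bases after the RefSeq transcription start, on the gene's own strand, in build GRCm38.p6. The windows lie at chr13:74350191-74350490 on the minus strand for Sdha, chr9:50603800-50604099 on the minus strand for Sdhd, chr9:57520982-57521281 on the plus strand for Cox5a and chr11:96075582-96075881 on the minus strand for Atp5g1. Capitals mark letters that match a searched motif on either strand: 3 NRF1 matches in Sdha, and in Sdhd 1 NRF1, 1 ETS and 1 ERR match. Cox5a and Atp5g1 held none. These windows were picked after their values and matches were seen.
Sdha: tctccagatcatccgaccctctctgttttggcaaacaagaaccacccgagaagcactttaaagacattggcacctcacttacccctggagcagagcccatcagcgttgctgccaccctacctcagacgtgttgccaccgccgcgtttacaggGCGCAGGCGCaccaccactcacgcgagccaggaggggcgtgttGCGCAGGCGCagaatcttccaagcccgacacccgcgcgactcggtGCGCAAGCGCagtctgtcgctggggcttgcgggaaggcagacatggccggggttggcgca
Sdhd: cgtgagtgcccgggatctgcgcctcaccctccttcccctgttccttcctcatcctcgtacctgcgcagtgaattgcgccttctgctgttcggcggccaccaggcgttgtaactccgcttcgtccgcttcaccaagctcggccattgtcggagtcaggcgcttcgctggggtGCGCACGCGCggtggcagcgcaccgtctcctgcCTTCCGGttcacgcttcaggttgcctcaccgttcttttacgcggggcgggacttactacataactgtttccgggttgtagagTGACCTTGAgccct
Cox5a: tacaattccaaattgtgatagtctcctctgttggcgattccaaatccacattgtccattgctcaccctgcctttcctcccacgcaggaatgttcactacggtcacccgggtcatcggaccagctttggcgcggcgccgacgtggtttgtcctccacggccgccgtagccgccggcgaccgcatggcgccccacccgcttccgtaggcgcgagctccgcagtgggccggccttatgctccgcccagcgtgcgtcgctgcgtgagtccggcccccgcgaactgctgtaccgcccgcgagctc
Atp5g1: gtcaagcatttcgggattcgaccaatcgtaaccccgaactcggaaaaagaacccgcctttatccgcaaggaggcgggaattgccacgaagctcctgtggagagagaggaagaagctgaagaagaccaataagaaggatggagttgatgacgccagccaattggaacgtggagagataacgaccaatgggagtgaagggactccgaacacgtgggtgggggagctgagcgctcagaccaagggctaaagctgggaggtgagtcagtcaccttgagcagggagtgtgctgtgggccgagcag

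Promoter windows in RefSeq were found for 74 of the 89 members, 3 of them through an older symbol. The motifs searched on both strands were the palindromic NRF1 motif, CCGGAAG for ETS factors, TCAAGGTCA for estrogen-related receptors (ERR) and the YY1 motif, factors known for control of respiratory genes. The NRF1 letters stood in 19 of the 74 windows (25.7%), against 1402 of 27025 genes (5.19%). The ETS letters stood in 18 (24.3% against 9.93%), the YY1 letters in 6 (8.11% against 0.755%) and the ERR letters in 2 (2.70% against 0.4662%). Members with and without the NRF1 letters rose to a like degree with Ucp1 across libraries: the median slope, in log2 units per doubling of Ucp1 + 1, was 0.22 over the 19 with a match and 0.25 over the 55 without. A match describes these letters only.

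Among the members, FPKM-type levels differed by role. The 7 complex I core subunits, which carry the flavin and iron-sulfur clusters, had means between 48.5 and 139.7, with a median of 99.8. The 29 complex I accessory subunits had a median of 109.03, and the 4 subunits of complex II, which is succinate dehydrogenase, a median of 140.7. Levels were higher for the 8 subunits of complex III (median 198.2), the 15 of ATP synthase (median 218.4) and the 11 of complex IV, cytochrome c oxidase (median 330.9). The highest single means were those of Atp5b, the catalytic beta subunit of ATP synthase, at 576.8, Cox4i1 at 522.3, Cox6c at 487.9 and Uqcrh at 465.9. Assembly factors were low, with a median of 11.6, and the 4 tissue-restricted isoforms Cox4i2, Cox6a2, Cox6b2 and Ndufa4l2 had means between 4.36 and 8.40. In GENCODE M21, 87 members matched a single gene each, and these lay on 19 chromosomes, at most 8 on 1 chromosome. Reads of Ndufab1 and Atp5l may be shared with the pseudogenes Ndufab1-ps (mean 2.98) and Atp5l2-ps (mean 1.13), so their levels are less certain.

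Together the 89 genes made up 1.54% to 5.48% of a library's column sum, with a median of 2.13%. The mean of log2(value + 1) over the 89, called the respiratory score from here on, ranged from 5.81 to 8.04. Libraries taken at 3 weeks spanned 6.00 to 8.04, those at 8 weeks 5.81 to 6.99, and those at 16 weeks 5.84 to 7.48. The wide spread at 3 weeks was present in each group of that time. In wild-type vehicle and knockout Scl-Ab mice of week 3 it rested largely on 1 library each. These scored 7.84 and 7.86, against 6.85 and 6.93 in the next highest. The score was 6.56 ± 0.59 (SD, n = 8) in wild-type vehicle mice, 7.25 ± 0.63 (n = 6) in wild-type Scl-Ab mice, 6.98 ± 0.66 (n = 8) in knockout vehicle mice and 6.59 ± 0.54 (n = 9) in knockout Scl-Ab mice. Group means at 8 and 16 weeks lay between 6.15 and 6.41, with the widest SD, 0.52, in knockout Scl-Ab mice of week 16.

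**Figure D1:**
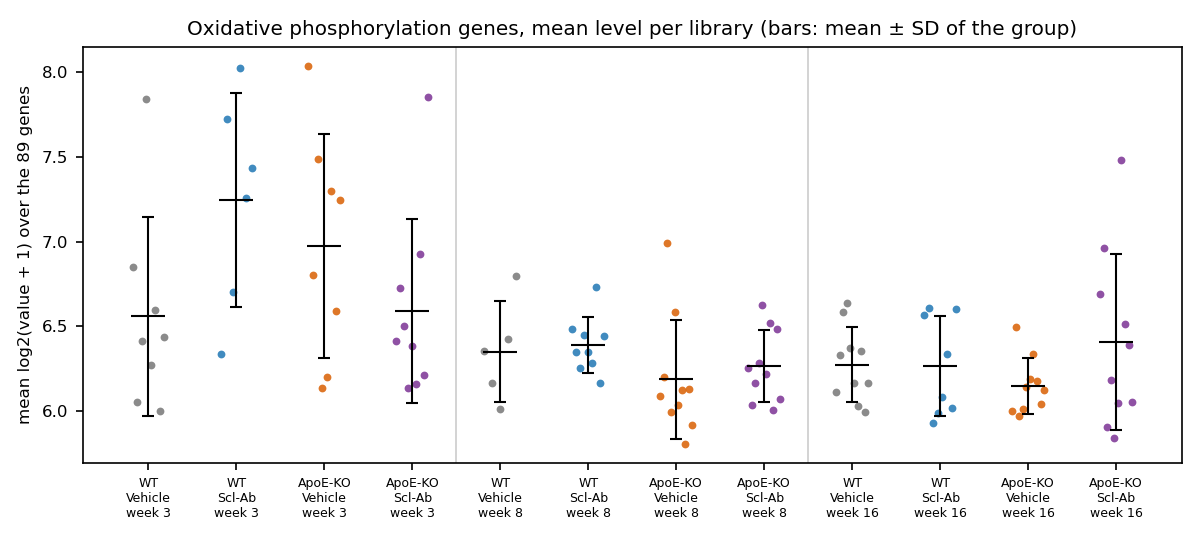
Mean log2(value + 1) over the 89 oxidative phosphorylation genes (y axis) in each library, by group (x axis: genotype, treatment and week); points are libraries and black bars the group mean ± SD. The 4 groups of week 3 overlap one another, with group means between 6.56 and 7.25 and libraries up to 8.04. Group means of the later weeks lie between 6.15 and 6.41, with libraries up to 7.48.

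The respiratory genes followed Ucp1 from library to library. Ucp1, the uncoupling protein of brown fat, varied from 10.8 to 3383. In the 30 libraries with Ucp1 under 100 the score had a median of 6.02 and the members took up a median of 1.76% of the column sum. In the 63 libraries with Ucp1 of 100 to 1000 these were 6.41 and 2.21%, and in the 10 libraries above 1000 they were 7.61 and 4.60%. The score ranges of the lowest and the highest class (5.81 to 6.35 and 7.25 to 8.04) did not overlap; 9 of the 10 libraries above 1000 were of week 3. Within the 11 groups of at least 6 libraries, Pearson's r between score and log2(Ucp1 + 1) ran from 0.551 to 0.964 with a median of 0.931, and Spearman's rho from 0.617 to 1. The lowest r was in wild-type Scl-Ab mice of week 8, where it was 0.269 without the 2 libraries farthest from the median of Ucp1. The score rose by 0.09 to 0.45 per doubling of Ucp1, and by 0.30 to 0.45 in the 4 groups of week 3. The relation to Ucp1 is part of how the genes were chosen, and all values of a library share its tissue sample and depth, so these are descriptions.

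**Figure D2:**
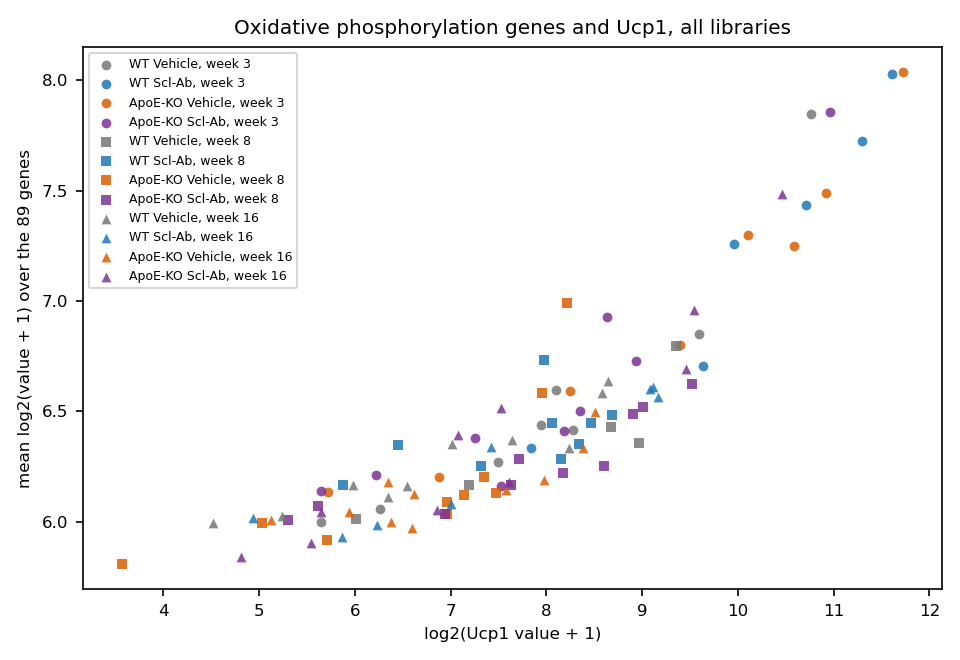
Mean log2(value + 1) over the 89 genes (y axis) against log2(Ucp1 value + 1) (x axis) for all libraries; colours give genotype and treatment and symbols the week. The score rises with Ucp1 in each week, and the 10 libraries with Ucp1 above 1000 lie at 7.25 or higher.

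In whole arch tissue, fewer cells of a type and less RNA per cell cannot be told apart, and this holds for all differences below. Cox8b and Cox7a1, the cytochrome oxidase isoforms of brown fat and striated muscle, are on the brown adipocyte list. They had r of 0.982 and 0.984 with Ucp1 over all libraries with group means removed. The r of the remaining brown adipocyte markers with Ucp1 was not computed. The respiratory score had r of 0.859 with Ucp1 and 0.586 with Myh6, the atrial-type cardiac myosin, and Ucp1 had r of 0.462 with Myh6. Of the 13 brown adipocyte markers, 12 were above 0 in each library, while Zic1, a marker of classical brown fat of the back, was listed at 0 in 57 libraries and reached 0.117.

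Most members moved as a block. With group means removed, each member was correlated with the mean of the other 88 over all libraries. The median r was 0.967 and 66 of the 89 members exceeded 0.9. Among the 14548 other genes tested, the median r with the members' mean was -0.12 and 331 exceeded 0.9. The members nearest to the block, singled out after their values were seen, were Ndufb9 (r = 0.991), Ndufs3 (0.989), Ndufa4 (0.989) and Cox6c (0.989), a complex I accessory subunit, a complex I core subunit, a subunit of complex IV first assigned to complex I, and a complex IV subunit. The median r by role was 0.984 in complex IV, 0.969 and 0.967 in complex I accessory and core subunits, 0.966 in ATP synthase and in complex III, and 0.956 in complex II. It was 0.799 among the assembly factors and 0.412 among the tissue-restricted isoforms.

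The complexes differed in how far their genes spread. The highest library stood over the lowest by a median of 10.3 times in complex II, 9.24 in complex III, 8.19 in complex IV, 6.87 in the complex I core, 5.98 in ATP synthase and 5.36 in complex I accessory subunits, against 3.86 in assembly factors. Uqcrq, a small subunit of complex III, spread 20.5 times, and Cox5a, a nuclear subunit of complex IV, 14.1 times. Cox7a2l, which is known as an assembly factor of respiratory supercomplexes, spread the least, at 1.91 times. The slope on Ucp1 was above 0 for each of the 89 members and ran from 0.00 for Cox4i2 to 0.56 for Cox6a2, with a median of 0.25.

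**Figure D3:**
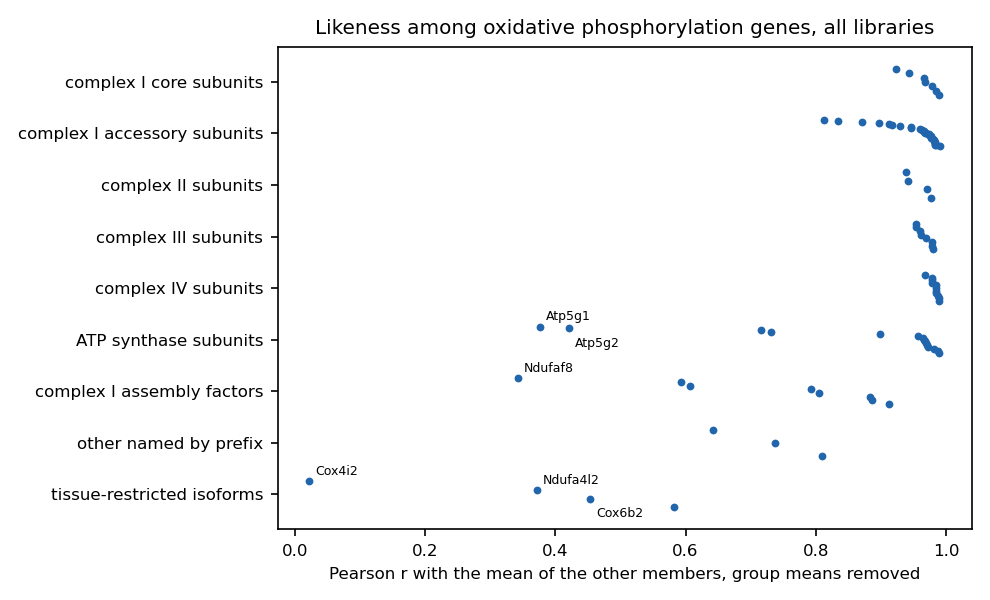
Pearson r of each of the 89 genes with the mean of the other 88 after group means were removed (x axis), by role (y axis), over all libraries; each point is a gene and genes below 0.5 are named. Complex subunits crowd near 1 (66 of 89 genes above 0.9), while Cox4i2, Ndufaf8, Ndufa4l2, Atp5g1, Atp5g2 and Cox6b2 lie below 0.5.

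At 3 weeks in wild-type mice, respiratory genes were higher with Scl-Ab than with vehicle across the complexes. Of the 89 members, 73 rose and 1 fell, with a median log2 change of 0.73, while 26.9% of all genes tested were called (13.7% higher) and the median of all genes was -0.02. All 7 core subunits of complex I rose, as did 28 of 29 accessory subunits, 4 of 4 in complex II, 8 of 8 in complex III and 11 of 11 in complex IV. In ATP synthase 11 of 15 rose and 1 fell. Of the assembly factors 3 of 8 rose, and of the tissue-restricted isoforms 0 of 4 were called (0 also at an unadjusted p under 0.05).

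Ndufv1, the complex I core subunit that binds NADH (chr19:4007384-4012806, minus strand, GRCm38), had the highest change. Its lowest, median and highest values were 46.1, 79.5 and 281 in 8 vehicle mice and 85.3, 220.2 and 455 in 6 Scl-Ab mice. The groups overlapped, with 2 of the 6 Scl-Ab libraries above the highest vehicle library, and the change was 1.28 ± 0.34 (limma, adjusted p = 0.00388). Cox5a (chr9:57521274-57532426, plus strand) went from 84.6, 169.7 and 832 to 128, 506 and 958. Its change was 1.19 ± 0.39 (adjusted p = 0.0159) and 1 of 6 libraries passed the highest vehicle library. Sdha, the flavoprotein of complex II (chr13:74322254-74350280, minus strand), went from 86.9, 132 and 532 to 134, 342 and 739.

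The change of Sdha was 1.15 ± 0.35 (limma, adjusted p = 0.0102), and that of its partner Sdhb, the iron-sulfur subunit, 1.13 ± 0.36 (adjusted p = 0.0133). Atp5b (chr10:128083273-128090391, plus strand) had values of 311, 483 and 1914 with vehicle and 465, 1183 and 2507 with Scl-Ab, a change of 1.103 ± 0.34 (adjusted p = 0.011). Here too the groups overlapped, with 2 of 6 libraries above the vehicle range. The abundant Cox4i1, the common isoform of the regulatory subunit 4 of cytochrome oxidase, rose by 0.82 ± 0.24 (adjusted p = 0.00727) and Uqcrh, the hinge protein of complex III, by 0.74 ± 0.22 (adjusted p = 0.00847). With 1 library left out, Ndufv1 stayed past the threshold in all 14 refits. Sdha, Sdhb and Atp5b lost the call without Scl-Ab replicate 2 or 4, and Cox5a without these or vehicle replicate 7. Cox4i1 and Uqcrh lost it without Scl-Ab replicate 4. Among these genes the highest adjusted p (limma) was 0.0892, for Cox5a. Other abundant members were less stable. Atp5l and Uqcrb lost the call in 8 of 14 refits and Ndufv2 in 7, with adjusted p up to 0.174 (limma, Uqcrb). Cox6c, Ndufb8 and Ndufb9 lost it in 2.

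Atp5g1 was the single member that fell. It is 1 of 3 genes, with Atp5g2 and Atp5g3, that code for the same mature c subunit of the ATP synthase rotor and differ in their import sequences (chr11:96068852-96075670, minus strand). Its lowest, median and highest values were 81.1, 95.5 and 223 with vehicle and 40.8, 80.3 and 118.03 with Scl-Ab, a change of -0.43 ± 0.17 (limma, adjusted p = 0.0427). The groups overlapped, with 3 of 6 Scl-Ab libraries below the lowest vehicle library. Atp5g2 changed by 0.51 ± 0.23 (adjusted p = 0.0944) and Atp5g3 by 0.00 ± 0.13 (adjusted p = 0.999), neither past the threshold. The Atp5g1 call ended when replicate 4 or 6 of the vehicle mice or replicate 2, 3 or 4 of the Scl-Ab mice was left out, with changes of -0.55 to -0.25 over the 14 refits and a highest adjusted p of 0.307. Over all libraries Atp5g1 had r of 0.376 with the other members, 0.146 with Ucp1 and 0.532 with Myh6, with group means removed. Its lowest library, wild-type Scl-Ab replicate 2 of week 3, had Ucp1 at 2517 and Myh6 at 2.90, and its highest, wild-type vehicle replicate 4 of week 3, had Ucp1 at 1736 and Myh6 at 259.4. The part of either tissue in these values was not tested.

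Fat genes moved with the respiratory genes in this comparison. Ucp1 was 49.2, 259.5 and 1736 (lowest, median, highest) with vehicle and 229, 1336 and 3125 with Scl-Ab, a change of 2.17 ± 0.81 (limma, adjusted p = 0.0363). The Ucp1 call ended when any of vehicle replicates 2, 5, 7 and 8, or of replicates 2, 4 and 6 on Scl-Ab, was left out. The brown adipocyte list had 9 of 12 tested genes higher, with a median change of 1.93, and its summed level had a range of 151.0 to 4836 with vehicle and 589.5 to 8001 with Scl-Ab. The white adipocyte list had 7 of 13 higher (summed range 632.5 to 9723 against 1313 to 10388.5), and 5 of 15 smooth muscle genes were lower. The cardiomyocyte list had 0 of 11 called, with a median change of 0.47 (summed range 28.6 to 5822 against 29.7 to 1385), and 0 of 15 macrophage genes were called. With Ucp1 as a covariate, which compares mice at a like Ucp1 level, 1 member was called in place of 74. The count was 1 with 4 tissue scores and 0 with 2 circadian clock components as covariates. For these and all later refits the share of all genes called is not given here. Leaving out replicate 2 or 4 of the wild-type Scl-Ab mice, which had the highest Ucp1 of that group, gave 17 and 6 members called, and leaving out replicate 7 of the vehicle mice gave 45, while the median change stayed between 0.55 and 0.92 over the 14 refits.

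In the same wild-type comparison, in which 13.7% of all genes tested were higher and 13.2% lower, other mitochondrial lists varied in how many members passed. In the tricarboxylic acid cycle, which supplies NADH and succinate, 15 of 16 genes were higher with a median change of 1.12, and in fatty acid oxidation 15 of 16 with a median of 1.39. Of 78 mitochondrial ribosomal protein genes 39 were higher (median 0.35), and of 20 assembly factors of complexes III and IV 13 were (median 0.38). Among 10 genes of electron carriers and nucleotide exchange 5 were higher, and among 14 tested genes of mitochondrial transcription and its regulators 5 were higher and 1 lower. Esrra, the estrogen-related receptor alpha, which activates respiratory genes, rose by 0.96 ± 0.25 (limma, adjusted p = 0.00375). Ppargc1a, the coactivator of mitochondrial biogenesis, changed by 0.58 ± 0.33 (adjusted p = 0.195), Tfam, which maintains mitochondrial DNA, by 0.18 ± 0.13 (adjusted p = 0.331) and Nrf1 by -0.12 ± 0.07 (adjusted p = 0.16), none past the threshold. In glycolysis 11 of 15 genes were higher and 1 lower.

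In knockout mice at 3 weeks, most members did not pass the test of Scl-Ab against vehicle. Of the 89 members 4 fell, 0 rose and 85 were not called. Over all genes tested 9.15% were called (3.63% lower, 5.51% higher), so the members' share of lower calls was near the background. The median log2 change was -0.41. At an unadjusted p under 0.05, 41 members were lower and 0 higher, a limit at which the share of all genes was not counted. The 4 were Ndufb6 and Ndufb2, accessory subunits of the membrane arm of complex I, at -0.73 ± 0.25 and -0.52 ± 0.17, and the assembly factors Ndufaf4 and Ndufaf5, at -0.43 ± 0.14 and -0.38 ± 0.12 (limma, adjusted p of 0.0466, 0.0386, 0.0372 and 0.0383). Ndufb6 was 73.02, 171 and 409 (lowest, median, highest) with vehicle and 51.4, 88.04 and 288 with Scl-Ab, with overlap between the groups. Atp5b changed by -0.61 ± 0.30 (adjusted p = 0.181) and Ucp1 by -1.23 ± 0.73 (adjusted p = 0.27). The count was 0 with Ucp1 as a covariate and with all genes kept whatever their level, 16 with the 4 tissue scores and 11 with the clock components. It was 52 without knockout Scl-Ab replicate 9, whose Ucp1 of 1989 and Myh6 of 298.2 were the highest of its group, 21 and 20 without knockout vehicle replicates 4 and 5, and 0 to 2 without knockout vehicle replicate 1, 3, 6 or 8 or knockout Scl-Ab replicate 1 or any of 3 to 8.

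The response to Scl-Ab differed between the genotypes at 3 weeks. The test of the difference (knockout response minus wild-type response) called 73 members lower and 1 higher, with a median of -1.11, at a background of 18.2% of genes called (11.3% lower, 6.85% higher) and a median over all genes of 0.06. All members of complexes II, III and IV and of the complex I core were among them, with 26 of 29 accessory subunits, 11 of 15 ATP synthase subunits, 5 of 8 assembly factors and 0 of 4 isoforms. The strongest were Cox5a at -2.05 ± 0.52 (limma, adjusted p = 0.00649) and Uqcrfs1, the Rieske iron-sulfur protein of complex III, at -1.90 ± 0.53 (adjusted p = 0.00932). Atp5g1 was the 1 higher, at 0.68 ± 0.22 (adjusted p = 0.0251), a call that ended without replicate 2 or 4 of the wild-type Scl-Ab mice or replicate 3 of the knockout vehicle mice. Ucp1 differed by -3.40 ± 1.09 (adjusted p = 0.0213), with 9 of 12 brown and 9 of 13 white adipocyte genes lower. In the other lists, 15 of 16 genes of the tricarboxylic acid cycle, 15 of 16 of fatty acid oxidation and 52 of 78 mitochondrial ribosomal protein genes were lower. Leaving out replicate 4 of the wild-type Scl-Ab mice gave 48 calls. The count was 0 with Ucp1 as a covariate, and it was 0 without the 2 libraries of the highest brown adipocyte score (1 knockout vehicle, 1 wild-type Scl-Ab). Both of these were also among the 21 libraries of high cardiomyocyte score.

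The comparisons of the genotypes within a treatment share these same libraries, so their values are given side by side and not as separate evidence. Under vehicle at 3 weeks, 6 members were higher in knockout mice and 0 lower, at a background of 24.9% of genes called (11.6% higher), with a median change of 0.45. At an unadjusted p under 0.05, 45 members were higher, a limit at which the share of all genes was not counted. The 6 were Uqcrq, Cox8a, Atp5j2, Ndufs6, Ndufaf7 and Cox7a2l, with changes from 0.22 ± 0.09 (Cox7a2l; limma, adjusted p = 0.0452) to 0.85 ± 0.33 (Uqcrq; adjusted p = 0.0474). Uqcrq was 76.2, 141 and 525.80 (lowest, median, highest) in wild-type and 98.8, 289.8 and 748 in knockout mice, which overlapped. Beside these, the median of Ucp1 was 259.5 in wild-type and 888 in knockout mice, a change of 1.19 ± 0.75 (limma, adjusted p = 0.227), and that of the brown adipocyte sum 717.7 (range 151.0 to 4836) and 2417 (range 183.2 to 7757), with 0 of 12 brown adipocyte genes called. The share of members higher was below the background, and the count was 0 with Ucp1, with the clock components or with all genes kept, and 1 with the tissue scores. Leaving out replicate 4 of the wild-type mice gave 71 calls and replicate 1 gave 10; leaving out replicates 4, 5 and 7 of the knockout mice gave 48, 45 and 15. It was 0 to 2 without wild-type vehicle replicate 2, 3, 5, 6, 7 or 8 or knockout vehicle replicate 1, 3, 6 or 8.

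Under Scl-Ab at 3 weeks, 62 members were lower in knockout than in wild-type mice and 0 higher, at a background of 25.7% of genes called (12.4% lower), with a median change of -0.71. All subunits of complexes II, III and IV and of the complex I core were lower, with 21 of 29 accessory subunits, 7 of 15 ATP synthase subunits and 3 of 8 assembly factors. Sdha was 134, 342 and 739 (lowest, median, highest) in wild-type and 82.8, 134 and 613 in knockout mice. Its change was -1.23 ± 0.34 (limma, adjusted p = 0.00542), with overlap, and 5 of 9 knockout libraries lay below the wild-type range. Uqcrfs1 went from 68.2, 242 and 502 to 49.1, 86.1 and 437, a change of -1.23 ± 0.38 (adjusted p = 0.0133), which was not past the threshold without wild-type replicate 2 or 4; Sdha stayed past it in all 15 refits. In this comparison 6 of 12 brown adipocyte and 12 of 15 glycolysis genes were lower and 15 of 15 macrophage genes higher, and the brown adipocyte sum ran from 589.5 to 8001 in wild-type and from 191.2 to 5765 in knockout mice. The count was 3 with Ucp1 as a covariate, and leaving out wild-type replicate 2 or 4 gave 22 and 7. Of the members, 59 were called in the wild-type response, in this comparison and in the difference of the responses alike. Each of these tests holds the same wild-type Scl-Ab libraries, so the shared calls are not separate evidence. The share of all genes called in each of them was not counted.

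**Figure D4:**
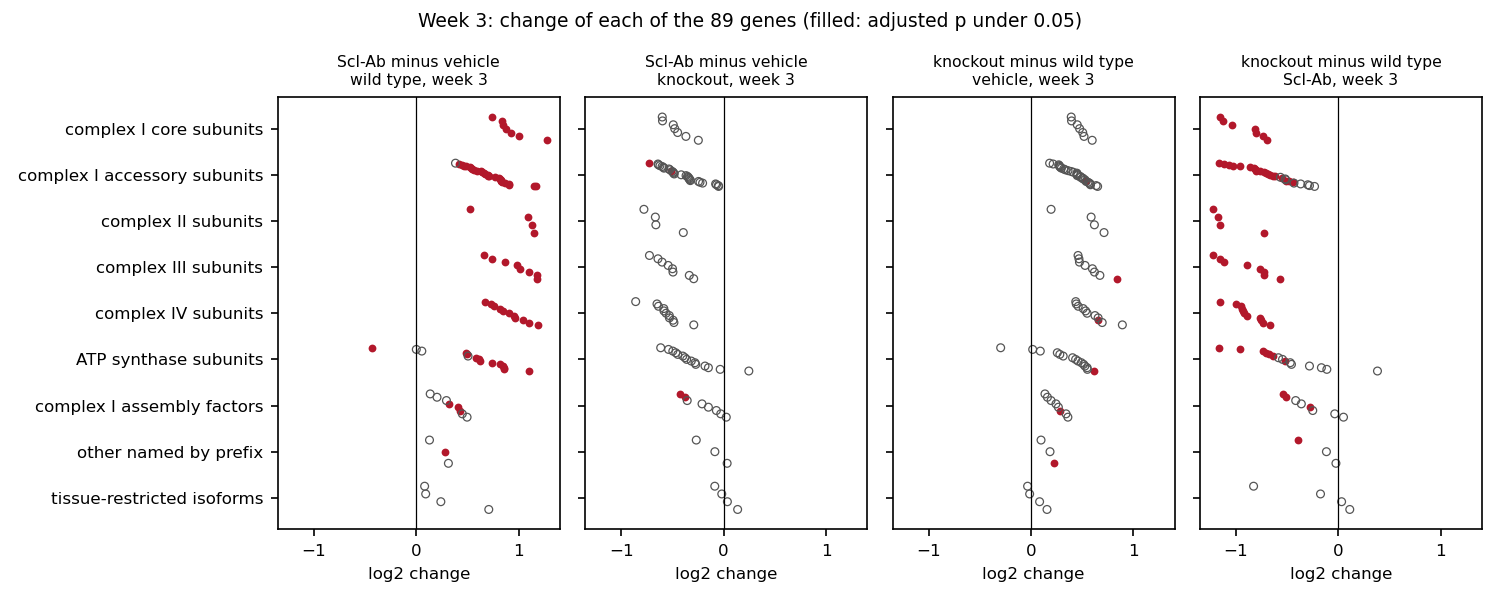
Log2 change of each of the 89 genes at 3 weeks (x axis) by role (y axis) in 4 comparisons; filled points passed an adjusted p of 0.05 in limma and open points did not. The wild-type response to Scl-Ab lies to the right (73 higher, 1 lower), the knockout response to the left (4 lower), and the genotype difference changes side between vehicle (6 higher) and Scl-Ab (62 lower).

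At 8 and 16 weeks the block of respiratory genes did not change past the threshold with treatment. With Scl-Ab, limma called 0 of 89 members in wild-type and in knockout mice at both times. At an unadjusted p under 0.05 there was 1, Atp5s, in wild-type mice of week 8 and 0 in the other 3 comparisons. At the adjusted threshold, 0% (wild type, week 8), 1.81% (knockout, week 8, 0.704% higher and 1.11% lower), 0.00683% (wild type, week 16) and 0.0137% (knockout, week 16) of all genes were called. The medians were 0.02 and 0.04 at 8 weeks and 0.01 and 0.24 at 16 weeks, in wild-type and knockout mice. The difference of responses between genotypes had 0 members called at each of these times, at a background of 0% of genes called at both. At an unadjusted p under 0.05, 1 and 0 members passed. In knockout mice on Scl-Ab at 16 weeks, the scores of the 10 libraries ran from 5.84 to 7.48, the highest in replicate 7 with Ucp1 at 1404. Whether the wild-type response differed between 3 and 16 weeks was tested after these values were seen. That test called 0 members, at a background of 0.26% of genes called (0.0888% higher), with a median difference of 0.75. At an unadjusted p under 0.05, 67 members passed, a limit at which the share of all genes was not counted. The test called 63 members without wild-type vehicle replicate 4 of week 3 and 16 without wild-type Scl-Ab replicate 1 of week 3.

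Cox4i2 was called between the genotypes in 3 of the 4 comparisons at the later times, and Atp5j in the other. Cox4i2 codes for the isoform of subunit 4 of cytochrome oxidase known from lung, vessels and the response to low oxygen (chr2:152754173-152765037, plus strand). At 16 weeks under vehicle its values were 4.26, 5.62 and 8.24 (lowest, median, highest) in wild-type and 8.03, 9.74 and 15.3 in knockout mice, a change of 0.75 ± 0.13 (limma, adjusted p = 3.07e-06). Under Scl-Ab they were 4.09, 5.2 and 6.95 in wild-type and 6.62, 10.3 and 14.3 in knockout mice, a change of 0.85 ± 0.14 (adjusted p = 6.52e-07). In both, 9 of 10 knockout libraries lay above the wild-type range and 1 within it. Cox4i2 was the only member called in either comparison, against a background of 36.7% of genes under vehicle (15.5% higher) and 43.9% under Scl-Ab (17.6% higher). With Ucp1 as a covariate 9 members were called under vehicle and 6 under Scl-Ab, and without wild-type vehicle replicate 1 the count under vehicle was 3; Cox4i2 kept its call under vehicle in all 20 refits with 1 library left out.

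At 8 weeks under vehicle the 5 wild-type libraries had Cox4i2 at 6.62, 6.14, 6.55, 5.27 and 5.29 and the 10 knockout libraries had a lowest, median and highest value of 5.29, 8.02 and 22.4. Of the knockout libraries 9 lay above the wild-type range, and the change of 0.57 ± 0.17 was called (limma, adjusted p = 0.00902), alone among the members at a background of 15.5% (10.2% higher, 5.32% lower). Without wild-type replicate 3 the count was 2. Under Scl-Ab at 8 weeks the change was 0.06 (adjusted p = 0.781), and the groups ranged from 4.9 to 11.2 and from 6.09 to 12.2. At 3 weeks the vehicle change was 0.16 ± 0.15 (adjusted p = 0.448). The change under vehicle at 16 weeks exceeded that at 3 weeks by 0.59 ± 0.20 (adjusted p = 0.0739), a test added after the values were seen and short of the threshold. In that test 0 of 89 members were called, at a background of 4.22% of genes called (3.29% higher). At an unadjusted p under 0.05, 37 members passed, a limit at which the share of all genes was not counted. The test gave 12 calls without wild-type vehicle replicate 4 of week 3, 3 without replicate 4 or 5 of the knockout mice of week 3 and 1 without wild-type replicate 1 of week 16. The 1 member called under Scl-Ab at 8 weeks was Atp5j, coupling factor 6 of ATP synthase, at -0.23 (adjusted p = 0.036; background 32.2%), a call lost without the filter on low values and under rescaling by median of ratios.

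Cox4i2 stood apart from the other members across libraries, with r of 0.02 to their mean and 0.34 to Acta2, a smooth muscle actin, with group means removed. Beside its difference at 16 weeks under vehicle, 15 of 15 macrophage genes were higher in knockout mice (summed range 251.8 to 537.7 in wild-type and 3504 to 10699 in knockout mice) and 13 of 15 smooth muscle genes were lower (18621 to 25675 against 12432 to 20347). The part of either cell type in the change of Cox4i2 was not tested. Its partner isoform Cox4i1 had values of 345, 412 and 511 in wild-type and 319.9, 377 and 507 in knockout mice in the same comparison and was not called.

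The remaining isoforms had patterns of their own and were called in no comparison. Cox6a2, the striated muscle isoform of subunit 6a (chr7:128205435-128206387, minus strand), was listed at 0 in 7 libraries and at 1 or more in 35. It followed Myh6, with r of 0.973 over all libraries with group means removed, against 0.478 with Ucp1. Its highest values were 151.1 in wild-type vehicle replicate 4 and 147.2 in knockout Scl-Ab replicate 9 of week 3, which also had the highest Myh6 (259.4 and 298.2). The cardiac light chains Myl7 and Myl4, of atrial type, reached 1241 and 1353. The ventricular Myl2 was listed at 0 in 61 libraries and reached 101.9, and Myl3 reached 60.3. Nppa, also on the cardiomyocyte list, was listed at 0 in 37 libraries and reached 278.2. On the skeletal muscle list the myosins Myh1, Myh2 and Myh4 stayed at or below 0.126, while Ckm reached 91.7 and Myl1 312.5. Ndufa4l2, a relative of Ndufa4 known for its induction by low oxygen, had group medians between 7.20 and 9.45, and Cox6b2, known from testis, between 3.49 and 5.28; their groups overlapped at each time.

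**Figure D5:**
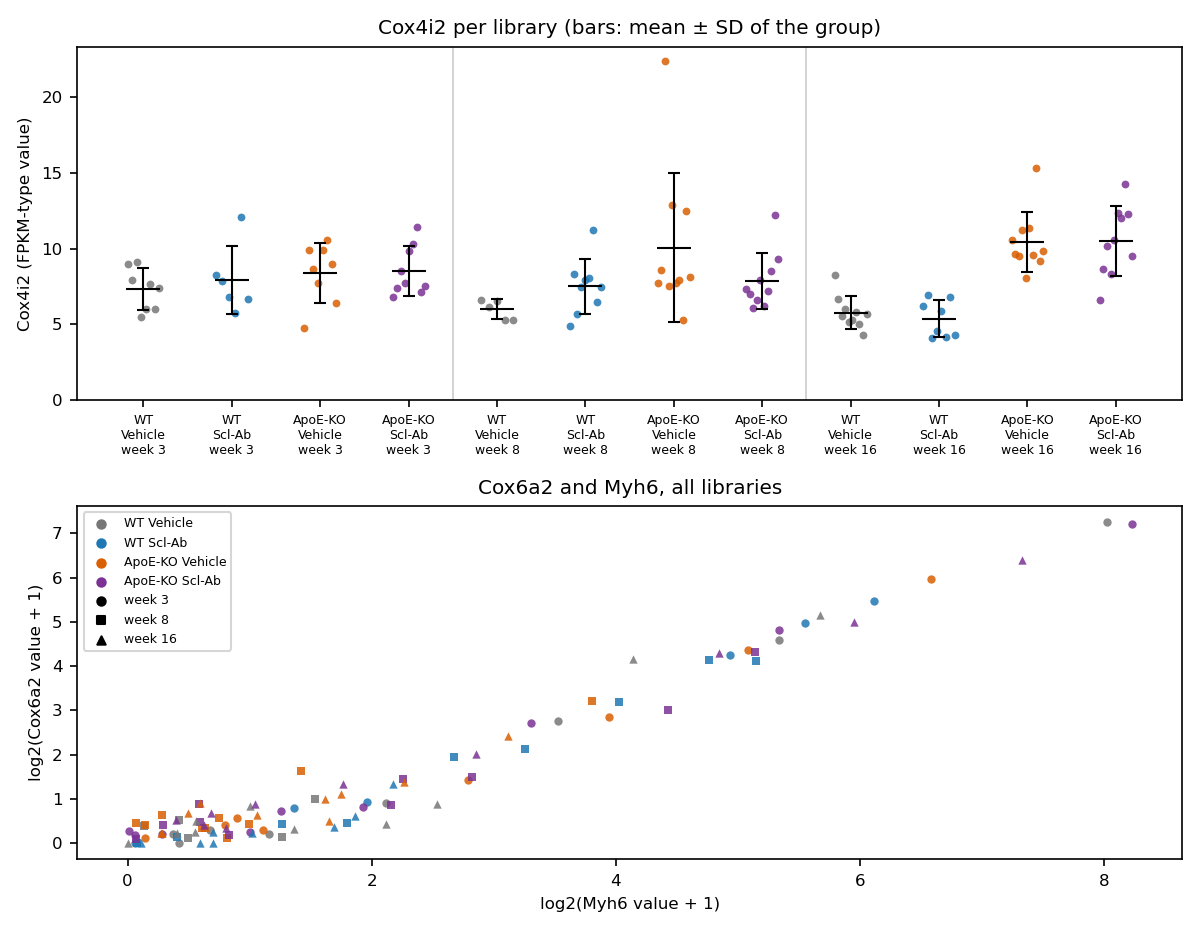
Upper panel: Cox4i2 value (y axis) in each library by group (x axis), with bars for the group mean ± SD; at week 16 the knockout libraries (6.62 to 15.3) lie mostly above the wild-type libraries (4.09 to 8.24). Lower panel: log2(Cox6a2 value + 1) against log2(Myh6 value + 1) in all libraries, which rise together, with colours for genotype and treatment and symbols for the week.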

How the data were processed

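RNA was extracted from the aortic arch, 1 library per mouse, and sequenced from a stranded mRNA kit, per the labels' protocols. The authors deposited 1 table per library with 51456 gene symbols and a value in a column named FPKQ, read here as of FPKM type since its definition is not stated; the submitters' processing notes name the build GRCm38 and DESeq2 1.10.1. Aligner, quantifier, annotation and any use of strand are not stated there, so overlapping and antisense genes may share reads. Read depth is unknown, and no interval that needs it is given.

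The deposited FPKM-type values were used as log2(value + 1). Genes at 1 or more in at least 5 libraries (14637) were fitted by limma 3.58.1 under R 4.3.3 with a mean for each group (moderated with trend and robust options, 91 residual degrees of freedom, Benjamini-Hochberg adjustment over all genes tested). The fit was tested on simulated data. Groups came from GEO's labels, and each library is a separate animal. Motif searches and summaries used Python 3.11.15, pandas 2.3.3, numpy 2.4.6 and scipy 1.17.1, and figures matplotlib 3.10.9.

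The genes and lists were chosen with earlier results of these data known. Genes named in the text were, per complex, the 2 with the highest mean, in each comparison the 2 highest and 2 lowest called, the isoforms Cox4i2, Ndufa4l2 and Cox6a2, and the regulators and comparators Ppargc1a, Esrra, Nrf1, Tfam, Ucp1, Cox7a1, Cox8b and Apoe; others were named after their values were seen. The values of 1 gene that this rule names are not reported here. Alternatives covered the pseudocount (0.1), the filter, rescaling by median of ratios, a replicate block, the run of animal numbers, covariates for Ucp1, tissue and clock genes, and leaving libraries out. No protein sequence was used here.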

Additional observations from a re-analysis of the deposited data

Results flagged for a closer look

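Single libraries stood far from their group in 25 of 204 checks, made over groups of 5 to 10 libraries. Chance flags about 1 in 20 groups for a single quantity. Most of the quantities checked were members that moved together, and the score is built from the members. The checks are therefore not independent, and the number of flags cannot be set against that rate. Wild-type vehicle replicate 4 of week 3 was the highest of 8 for Ndufv2 (428.6), Ndufb9 (669.1), Uqcrh (1130), Uqcrb (915.7), Cox6c (1322), Atp5l (1059) and Atp5g1 (223.0), and its respiratory score was 7.845. Its Ucp1 was 1736 and its Myh6 259.4. Knockout Scl-Ab replicate 9 of week 3 was the highest of 9 for Ndufv2 (396.5), Ndufb9 (630.9), Ndufb8 (780.1), Sdha (613.4), Sdhb (572.8), Uqcrb (850.1) and Atp5b (2266), and its score was 7.858. Its Ucp1 was 1989 and its Myh6 298.2. The part of fat or heart muscle in these values was not tested.

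The other single-library flags were spread over the later weeks. Wild-type Scl-Ab replicate 7 of week 8 was the highest of 9 for Uqcrh (606.9) and Atp5l (493.2). Cox4i2 reached 15.29 in knockout vehicle replicate 8 of week 16. Ndufa4l2 reached 11.91 in wild-type Scl-Ab replicate 6 and 17.52 in knockout Scl-Ab replicate 7 of week 16. Cox6a2 reached 8.31 in knockout vehicle replicate 2 of week 8, 4.343 in knockout vehicle replicate 6 of week 16 and 1.511 in wild-type Scl-Ab replicate 1 of week 16. Atp5g1 reached 186.1 in knockout vehicle replicate 3 of week 8.

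The response to Scl-Ab at 3 weeks differed between genotypes, by the test of the difference in limma, for 21 of the named genes. As knockout minus wild-type response on the log2 scale, the difference in complex I was -1.34 for Ndufv2, -1.32 for Ndufb9, -1.75 for Ndufb8 and -0.39 for the assembly factor Ndufaf3. In complex II it was -1.81 for Sdha and -1.80 for Sdhb, and in complex III -1.03 for Uqcrh, -1.20 for Uqcrb and -1.90 for Uqcrfs1. In complex IV it was -1.11 for Cox4i1, -1.25 for Cox6c and -2.05 for Cox5a. In ATP synthase it was -1.72 for Atp5b, -1.07 for Atp5l and 0.68 for Atp5g1. Among comparators and regulators it was -3.40 for Ucp1, -3.17 for Cox7a1, -3.10 for Cox8b, -1.32 for Esrra, -0.52 for Tfam and 0.25 for Nrf1. With 1 library left out, the call was lost in 11 of 31 refits for Cox7a1 and in 10 for Cox8b and Nrf1. It was lost in 9 for Tfam, 8 for Ndufaf3 and 3 for Ucp1 and Atp5g1. Cox4i1, Uqcrh and Atp5l lost it in 1, and the other genes listed here in 0.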

How the results depend on the processing

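Values are counts of oxidative phosphorylation genes called. The share of all genes called under each alternative is not given here. A loss of calls among the members therefore cannot be told from a general loss of calls. At 3 weeks they were 74 for the wild-type response to Scl-Ab, 4 for the knockout response, 6 for the genotypes under vehicle, 62 under Scl-Ab and 74 for the difference of responses. In that order, the counts were 1, 0, 0, 3 and 0 with Ucp1 as a covariate, 1, 16, 1, 19 and 0 with 4 tissue scores, 14, 0, 0, 16 and 0 without the libraries of high brown adipocyte score, and 12, 0, 0, 25 and 7 without the 21 libraries of high cardiomyocyte score, an alternative chosen after seeing the data. The 2 libraries of high brown adipocyte score were among the 21 of high cardiomyocyte score. Ucp1 may itself differ between groups, so that covariate compares mice at a given Ucp1 level. With 2 clock components the wild-type response had 0, the knockout response 11 and the genotypes under vehicle 0. Under vehicle the genotypes had 2 when the run of animal numbers was a term. With all genes kept, whatever their level, that comparison and the knockout response each had 0.

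At 8 weeks the genotypes under Scl-Ab went from 1 to 0 without the filter, under rescaling by median of ratios and without the libraries of high cardiomyocyte score, to 4 with Ucp1 and to 6 with the tissue scores. The genotypes under vehicle went from 1 to 2 with the tissue scores and 3 without the high cardiomyocyte libraries, and the knockout response from 0 to 9 with the tissue scores. At 16 weeks the genotypes under vehicle went from 1 to 9 with Ucp1, 7 with the tissue scores, 3 with the clock components and 2 without the high cardiomyocyte libraries, and those under Scl-Ab from 1 to 6, 3 and 2 with the same alternatives but the clock, and to 2 with a pseudocount of 0.1. The knockout change from 3 to 16 weeks under vehicle went from 0 to 1 with the tissue scores. With Ucp1 as a covariate the difference of responses reversed for Cox7a1 (0.19) and Cox8b (0.17). The cause was not tested. Ucp1 under its own covariate, and Ucp1, Cox7a1 and Cox8b under the tissue scores that hold them, have no value.

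With 1 library left out, counts ran from 6 to 79 for the wild-type response at 3 weeks, 0 to 52 for the knockout response, 0 to 71 for the genotypes under vehicle, 7 to 76 under Scl-Ab and 48 to 79 for the difference of responses. They ran from 1 to 2 for the genotypes under vehicle at 8 weeks and 1 to 3 at 16 weeks, 0 to 12 for the knockout change from 3 to 16 weeks and 0 to 63 for the wild-type response at 3 against 16 weeks. The sign of the median change over the 89 genes stayed the same in these refits of week 3. Over all alternatives, 340 counts kept within 1.5 times and 88 did not, and of single-gene values 1666 kept their call or its absence, 592 lost a call and 2 reversed. With the replicate number as a block, the genotypes under vehicle at 3 weeks had 3 and those under Scl-Ab at 8 weeks 0. Pair correlations of same-numbered libraries ran from -0.569 to 0.79, and 0 of 12 comparisons were above 0.1 in each pair. Pairs above 0.1 numbered from 1 of 10 (genotypes under vehicle, week 16) to 6 of 8 (genotypes under Scl-Ab, week 16). Whether some of these libraries deviated together was not settled by this check.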
